A study of Arabidopsis thaliana with 18 samples.

Results

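The passage of *ros1-4* seeds from the mature dry state to germination stage II was followed in 6 of the 18 libraries of the series. The 3 libraries of stage II were compared with the 3 of mature seeds across every gene. Transcripts of 27587 genes were quantified, a read was assigned to 23201 of them in these 6 libraries, and 18822 had enough reads to be tested. RNA was sequenced from entire seeds of *Arabidopsis thaliana*, with 3 replicates of 100 seeds at each of 3 stages (mature, germination II and germination IV) in Col-0 and in *ros1-4*. Both groups described here carried the *ros1-4* allele, a T-DNA insertion of a single line in the Col-0 background, in the gene of the DNA demethylase ROS1, and both came from plants grown under the control treatment of 23 °C without heat stress. Mature seeds were dried, and stage II seeds were dried and then imbibed in water in the light. The paper describes stage II by rupture of the seed coat and the radicle point. The powder of stage II seeds also stood in a lysis buffer with polyvinylpyrrolidone before extraction, a step not described for dry seeds, so that stage and this handling cannot be told apart.

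ROS1 is a DNA glycosylase that cuts 5-methylcytosine out of DNA and so keeps many genes free of methylation. A dry seed holds transcripts left from maturation, among them those of storage proteins, oil body proteins and protectants against drying, under the control of abscisic acid (ABA). On imbibition these transcripts are lost, gibberellin (GA) synthesis and cell wall loosening begin, and the embryo turns to the use of its oil reserves, to protein synthesis and to photosynthesis.

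The *ros1-4* libraries held 19055574 to 19284232 estimated counts (reads assigned to transcripts by the authors' quantification) in mature seeds and 20719027 to 20787603 at stage II. A read was found for 18359 to 18991 genes in mature seeds and for 21218 to 21341 at stage II. The 10 top genes held 33.3% to 36.0% of all counts in mature seeds and the 100 top genes 57.7% to 60.5%, whereas at stage II they held 6.85% to 6.91% and 18.9% to 19.1%. Each of these shares was without overlap between the groups, for which an exact two-sided permutation test of 3 libraries against 3 gives p = 0.1, the smallest it allows. Levels are given below as counts, or as CPM scaled by edgeR's trimmed mean of M-values (TMM), and changes are relative to the other transcripts, since in bulk seeds fewer cells of a type and less RNA per cell cannot be told apart. Genes encoded in mitochondria took 0.124% to 0.169% of counts in mature seeds and 0.00512% to 0.00611% at stage II, and those encoded in chloroplasts 0.0930% to 0.130% and 0.187% to 0.272%. The sources name the replicates biological but not the plants or batches they came from, so that p-values measure only the spread between these samples.

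Of the 18822 genes tested, 16875 (89.7%) were differentially expressed at an adjusted p under 0.05 in edgeR's quasi-likelihood test, 9475 upregulated (50.3%) and 7400 downregulated (39.3%) at stage II. The groups did not overlap in 90.2% of the genes tested. The change was at least 2-fold in 7534 upregulated genes (40.0%) and 5140 downregulated genes (27.3%), and at least 32-fold in 2370 upregulated and 781 downregulated genes. The median log2 fold change over all genes tested was 0.33 under TMM scaling. Under library size alone that median was 1.68, with 17416 genes called (92.5%), 13900 upregulated (73.8%) and 3516 downregulated (18.7%). Genes shifted by a median of about 1.36 between the scalings. Some genes with no count in a group shifted less, such as ADS4 (12.31 to 12.81) and PGA4 (-13.16 to -12.30). A gene whose log2 fold change under TMM lies between about -1.36 and 0 therefore changes its direction with the scaling. In Col-0, 16228 of 18388 genes were called (88.3%), 8693 upregulated (47.3%) and 7535 downregulated (41.0%). A change called in *ros1-4* was also called in Col-0 in the same direction for 15076 genes, 89.3% of the genes called in *ros1-4* and 92.9% of those called in Col-0, while 147 genes were called in opposite directions.

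ROS1 itself (AT2G36490, chromosome 2, annotated as demeter-like 1) had 1219, 1466 and 1466 counts in mature *ros1-4* seeds and 1286, 1256 and 1221 at stage II. Its counts thus overlapped, while its TMM-scaled level fell from 116 ± 7.12 CPM (SD, n = 3) to 37.8 ± 1.00 CPM (SD, n = 3), a change of -1.61 on the log2 scale (standard error 0.07, adjusted p = 9.9e-12 in edgeR). Under library size alone the change was -0.26. In Col-0 the counts fell from 2578, 2455 and 2547 to 256, 273 and 281, and the decrease in *ros1-4* was smaller by 2.58 on the log2 scale (adjusted p = 1.2e-09 for the difference in edgeR). The counts cover the whole gene, so reads before and after the insertion were not told apart. The stage II libraries labelled *ros1-4* held more ROS1 reads than those of Col-0. The genotype of each library therefore rests on the labels, and with it the reading of each change between stages as one of *ros1-4*.

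**Figure D1:**
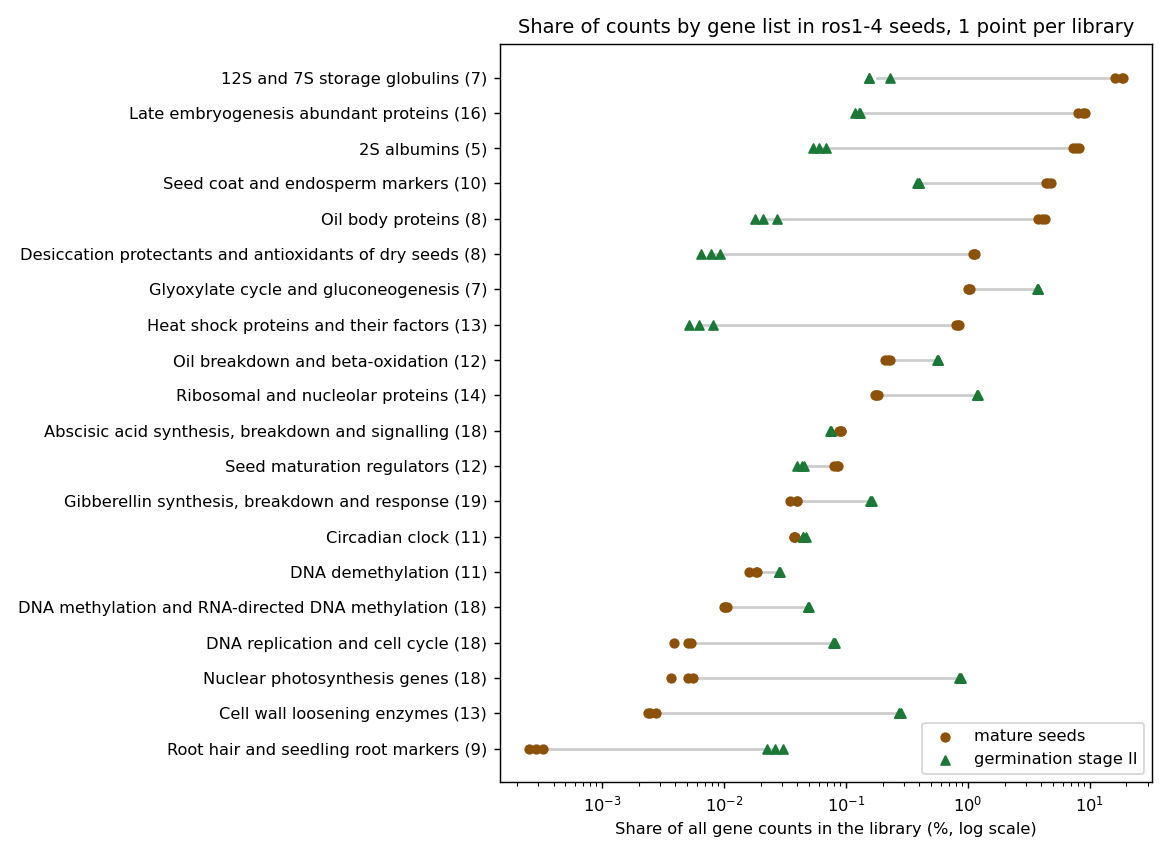
Share of all gene counts taken by each gene list (number of genes in brackets) in the 3 mature (brown circles) and 3 stage II (green triangles) libraries of *ros1-4*, on a log axis in percent, with a grey line between the group means. Storage globulins went from 17.7% to 0.180% of counts, and cell wall loosening enzymes from 0.00255% to 0.276%.

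By share of counts, transcripts of seed reserves and LEA proteins were 8 of the 10 largest losses, the others being EPR1 and AT1G54870. The 36 genes of storage globulins, 2S albumins, oil body proteins and late embryogenesis abundant (LEA) proteins together took 36.6% to 40.0% of counts in mature seeds and 0.344% to 0.456% at stage II. All 36 were tested and all 36 fell, against 39.3% of all genes tested, also under library size alone.

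The 7 genes of 12S and 7S globulins, which store nitrogen in the protein bodies of the embryo, had a median log2 fold change of -8.65, beside 0.33 for all genes. CRC, the gene of cruciferin 3, had 1882340, 1723971 and 1488819 counts in mature seeds and 9584, 10278 and 15530 at stage II, from 8.87% of all counts to 0.0568%. It changed by -8.65 on the log2 scale (standard error 0.36, adjusted p = 9.9e-12 in edgeR). CRA1, another 12S globulin, kept the most reads of the list at stage II, with 1004156, 1018550 and 909518 counts before and 18446, 18515 and 26641 after. The vicilin-like PAP85 went from 497519, 533930 and 503838 counts to 2534, 2059 and 3777.

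All 5 genes of the 2S albumins, small sulphur-rich storage proteins, fell with a median of -8.17. SESA3, the most abundant of them and the gene with the highest level per length among the lists in mature seeds (65550 TPM), had 1069932, 982761 and 919871 counts in mature seeds and 5349, 6209 and 7215 at stage II. SESA5 fell furthest, from 213841, 239581 and 189430 counts to 215, 400 and 1132 (adjusted p = 2.2e-10 in edgeR), which spread more at stage II than those of any other albumin. The SESA genes resemble each other in sequence, so that reads may have been divided among them.

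The 8 genes of oil body proteins, which coat the lipid droplets of the seed, fell with a median of -8.64. OLEO1, the major oleosin, went from 355338, 307544 and 378354 counts to 974, 1308 and 1846, while OLE3 fell by only 2.81 (standard error 0.10, adjusted p = 1.8e-12 in edgeR), from 861, 776 and 988 counts to 333, 325 and 385. OLEO4 and HSD1, a steroleosin, had log2 fold changes of -10.46 and -9.96.

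The 16 LEA genes, whose hydrophilic proteins protect cells during drying, fell with a median of -6.89. The dehydrin RAB18 had 417314, 351219 and 406505 counts in mature seeds and 694, 1014 and 1044 at stage II, a log2 change of -10.22 (standard error 0.27, adjusted p = 8.9e-14 in edgeR). ECP31 had the largest fall of the list, at -10.74, and LEA7 the smallest, at -5.31, with 4989, 4757 and 4601 counts left at stage II. Of the 8 genes of desiccation protectants and antioxidants, 7 fell, against 39.3% of all genes, among them GolS2 of galactinol synthesis (-9.73), the peroxiredoxin PER1 (-8.44) and the tonoplast aquaporin ALPHA-TIP (-9.27). The exception was RS5, a raffinose synthase, which rose by 3.19 (standard error 0.21, adjusted p = 2.6e-09 in edgeR), from 7, 12 and 15 counts to 280, 321 and 267.

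Among 13 heat shock proteins and factors, 12 were tested and 12 fell, against 39.3% of all genes tested, with a median of -7.86. The small heat shock protein HSP17.6A went from 70094, 64872 and 70991 counts to 167, 87 and 321, and the disaggregase HSP101 from 14321, 14650 and 14441 to 68, 73 and 118. HSP21, a chloroplast form, had 8, 11 and 7 counts in mature seeds and was not tested. HSC70-1, a cytosolic chaperone made without heat and not a member of the list, was instead the second largest gain in share, from 0.0872% to 0.788% of counts.

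EPR1, an extensin-like protein and a marker of the endosperm, was among the 10 largest losses in share but kept more of it than the reserves. It had 863530, 826030 and 910841 counts in mature seeds and 66791, 63253 and 67425 at stage II, so that it still took 0.317% of counts there. It changed by -5.20 on the log2 scale (standard error 0.22, adjusted p = 1.3e-11 in edgeR). Of 10 markers of seed coat and endosperm 5 were tested, with 2 rising and 3 falling, where 50.3% and 39.3% of all genes did. The mucilage genes MUM2 and MUM4 rose by 6.45 and 3.12, and the seed coat genes TT12, TT10, BAN and PRX36 had at most 15 counts in any of the 6 libraries. SBT1.7, a subtilase of mucilage release, fell by 0.85 under TMM and rose by 0.51 under library size alone. The LEA protein AT3G15670 and AT1G54870, annotated as an NAD(P)-binding protein, were the other members of these 10, beside CRC, SESA3, CRA1, PAP85, RAB18, OLEO1 and SESA5.

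**Figure D2:**
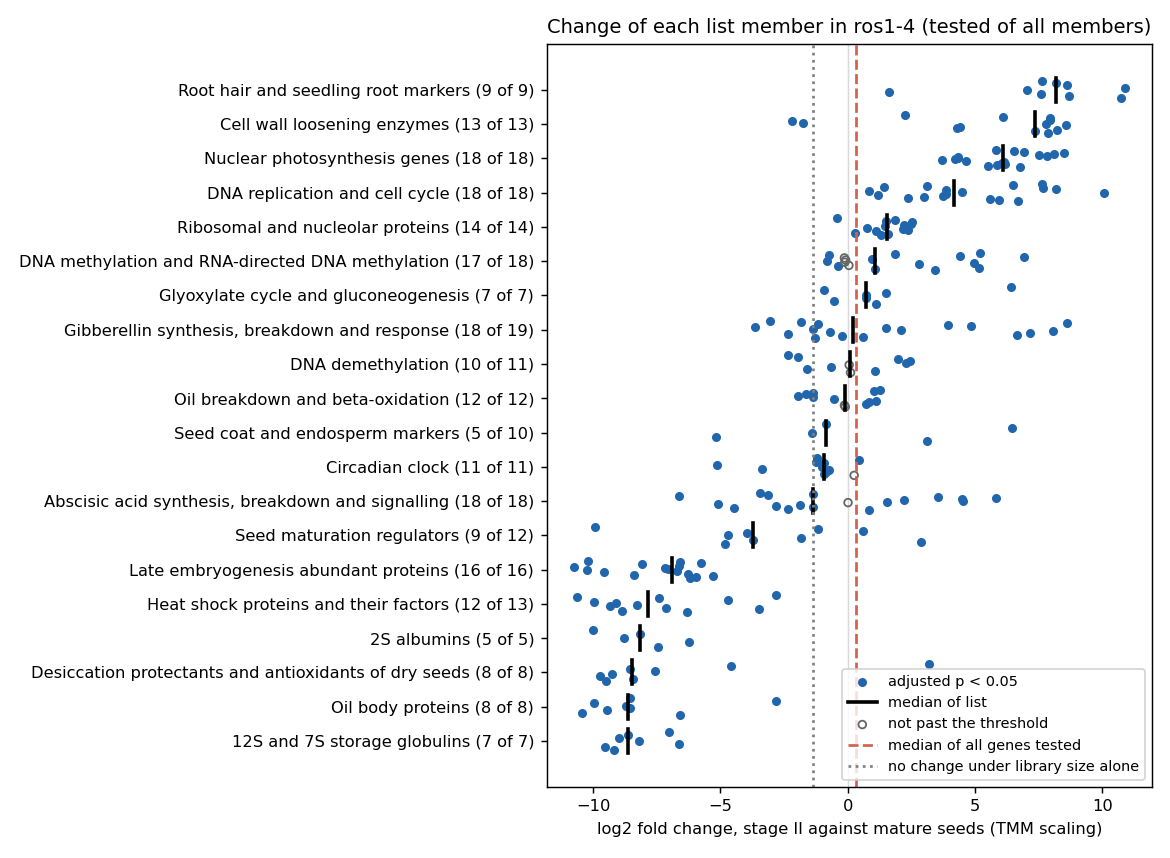
Change of every tested member of the 20 gene lists in *ros1-4*, as log2 fold change of stage II against mature seeds under TMM scaling, with filled points past an adjusted p of 0.05, open points not past it, and black bars for list medians. All tested storage, oil body, LEA and heat shock genes lie left of the dotted line at which library size alone gives no change, and all photosynthesis, DNA replication and root marker genes lie right of 0. Points of genes with no count in a group (CDC6, EXPA7 and XTH14) depend on the fit's prior count.

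Bases before the start site are shown for the 2 largest falls and the 2 largest rises as ranked below, for CRC, OLEO1 and RAB18 from the lists that fell together, and for RPS6A from the ribosomal list, to set the motifs of these groups side by side. The last 4 were chosen after their values were seen. Each window is the 250 bases upstream of the annotated start in TAIR10.1 (RefSeq), on the strand of the gene. Capitals mark ACGTG, the core of the ABA-responsive element, CATGCA, the RY element bound by ABI3 and its relatives, AAACCCTA, the telo box, and TGGGCC, found in promoters of ribosomal protein genes, on either strand, and hits may overlap.
CRC: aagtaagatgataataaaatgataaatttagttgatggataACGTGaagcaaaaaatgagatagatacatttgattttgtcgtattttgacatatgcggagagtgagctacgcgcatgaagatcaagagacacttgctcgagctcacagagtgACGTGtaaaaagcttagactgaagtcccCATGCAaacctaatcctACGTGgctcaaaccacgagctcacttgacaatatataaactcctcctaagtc
OLEO1: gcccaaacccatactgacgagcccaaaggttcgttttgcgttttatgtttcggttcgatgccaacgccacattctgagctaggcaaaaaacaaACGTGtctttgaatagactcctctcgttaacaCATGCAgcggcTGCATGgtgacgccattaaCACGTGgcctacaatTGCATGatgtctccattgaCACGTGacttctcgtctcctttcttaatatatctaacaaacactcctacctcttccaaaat
RAB18: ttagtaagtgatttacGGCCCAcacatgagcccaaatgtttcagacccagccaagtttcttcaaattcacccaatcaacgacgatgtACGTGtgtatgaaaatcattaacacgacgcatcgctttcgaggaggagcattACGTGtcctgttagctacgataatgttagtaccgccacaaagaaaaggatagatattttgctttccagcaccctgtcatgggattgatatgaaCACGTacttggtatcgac
RPS6A: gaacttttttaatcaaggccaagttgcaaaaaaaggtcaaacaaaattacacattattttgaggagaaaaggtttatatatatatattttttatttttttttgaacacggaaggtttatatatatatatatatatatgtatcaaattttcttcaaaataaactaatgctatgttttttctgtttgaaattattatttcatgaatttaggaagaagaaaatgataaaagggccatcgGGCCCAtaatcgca
VGD1: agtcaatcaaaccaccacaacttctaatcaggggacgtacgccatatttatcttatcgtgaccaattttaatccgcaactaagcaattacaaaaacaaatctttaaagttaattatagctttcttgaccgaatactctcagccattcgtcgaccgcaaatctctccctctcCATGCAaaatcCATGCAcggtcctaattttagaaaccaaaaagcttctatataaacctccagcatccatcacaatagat
AT5G07410: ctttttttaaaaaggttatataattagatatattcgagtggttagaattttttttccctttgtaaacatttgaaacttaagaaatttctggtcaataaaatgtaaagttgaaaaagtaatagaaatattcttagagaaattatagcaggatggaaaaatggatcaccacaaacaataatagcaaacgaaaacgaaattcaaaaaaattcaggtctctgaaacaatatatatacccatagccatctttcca
AT2G41475: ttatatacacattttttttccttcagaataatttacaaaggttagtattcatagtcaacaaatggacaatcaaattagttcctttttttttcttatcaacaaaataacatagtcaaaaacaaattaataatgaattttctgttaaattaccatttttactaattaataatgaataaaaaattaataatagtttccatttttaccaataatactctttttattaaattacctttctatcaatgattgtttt
GDCH: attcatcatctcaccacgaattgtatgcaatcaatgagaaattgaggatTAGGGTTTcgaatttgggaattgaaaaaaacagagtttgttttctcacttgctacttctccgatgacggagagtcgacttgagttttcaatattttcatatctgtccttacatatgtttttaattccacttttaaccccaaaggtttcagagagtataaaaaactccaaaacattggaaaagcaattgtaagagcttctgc
The windows lie at chr4:14087306-14087555 (CRC, plus strand), chr4:12900180-12900429 (OLEO1, plus strand), chr5:26519448-26519697 (RAB18, minus strand), chr4:15347805-15348054 (RPS6A, minus strand), chr2:19330198-19330447 (VGD1, minus strand), chr5:2345508-2345757 (AT5G07410, plus strand), chr2:17296566-17296815 (AT2G41475, minus strand) and chr2:14890791-14891040 (GDCH, plus strand).

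ACGTG stood in 22.9% of the 27391 windows read, CATGCA in 8.44%, AAACCCTA in 4.49% and TGGGCC in 13.7%. The core of the ABA-responsive element stood in 14 of 16 windows of LEA genes (87.5%), 5 of 5 of 2S albumins, 3 of 7 of globulins (42.9%) and 5 of 8 of oil body proteins (62.5%). The RY element stood in all 8 windows of oil body proteins, all 5 of 2S albumins, 5 of 7 of globulins (71.4%) and 3 of 16 of LEA genes (18.8%). TGGGCC stood in 8 of 14 windows of ribosomal and nucleolar genes (57.1%). Among the 100 largest falls, 40 windows held ACGTG, 28 held CATGCA and 6 held TGGGCC, and among the 100 largest rises the counts were 23, 17 and 2. The 15 largest falls had 5, 2 and 1, and the 15 largest rises 2, 3 and 0. These are descriptions of the letters in short windows of a few genes, without a test.

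For the largest falls and rises, genes were ranked by log2 fold change among 8276 called genes without overlap between the groups and with at least 20 CPM in the higher group, 4659 of them falling and 3617 rising. Of the 15 largest falls, 13 had no count in any stage II library. The first was VGD1, a pectin methylesterase known from the growth of pollen tubes, with 1367, 939 and 2516 counts in mature seeds and 0 in each stage II library. With 3 counts over the group as the floor, it was at least 4468-fold lower at stage II (adjusted p = 1.2e-09 in edgeR). The pectin lyase-like genes AT5G07410, AT3G07850, AT3G07820 and AT3G14040 followed, at least 3870-fold, 3111-fold, 2618-fold and 2424-fold lower, and the polygalacturonase PGA4 of pollen was at least 1682-fold lower.

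SWEET6, of a family of sugar transporters, went from 641, 625 and 635 counts to 0, at least 1762-fold lower. AT4G11911, annotated as STAY-GREEN-like, went from 569, 557 and 604 counts to 0, at least 1603-fold lower, and the ABC transporter ABCC15 from 291, 376 and 302 to 0, at least 898-fold lower. GASA2, of a family of small peptides known for members regulated by gibberellin, was the most abundant of the 15, with 3929, 3876 and 4436 counts in mature seeds and 2, 1 and 1 at stage II, a log2 change of -12.87 (standard error 0.16, adjusted p = 6.3e-16 in edgeR). AT5G39520, of unknown function, had 893, 870 and 985 counts before and a single count after, a ratio of 7639 with an exact 95% interval of 1370 to 301842.

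The remaining genes of this rank were the mucin-like AT3G28830 (at least 1657-fold lower), the invertase and pectin methylesterase inhibitor family member APPB1, the uncharacterized AT5G39880 and the peroxidase AT5G47000. In 10 of the 15 genes the highest mature library in CPM was 2.66 to 4.50 times the lowest, and in all 10 replicate 3 was highest and replicate 2 lowest, whereas in SWEET6, AT4G11911, GASA2, AT5G39520 and ABCC15 the ratio was 1.10 to 1.25. Among the 6543 tested genes of at least 20 CPM in mature seeds, 51 (0.779%) had a ratio of 2 or more. All 15 falls were still called without mature replicate 3, but the bounds of APPB1 (1483-fold), AT5G39880 (1286-fold) and AT5G47000 (874-fold) became 888-fold, 819-fold and 568-fold.

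A list of 22 pollen markers, written after these values were seen, was read beside them. This list holds PGA4, one of the 15 largest falls, and so is not independent of them. Its counts summed to 5425, 3916 and 10388 in mature *ros1-4* seeds and to 389, 420 and 396 at stage II, and to 5049 to 6680 in mature and 221 to 243 in stage II seeds of Col-0. Of the 15 markers with at least 20 counts in mature *ros1-4* seeds, all 15 had the most counts in replicate 3 and the fewest in replicate 2, and 8 had none at stage II. Of all genes tested, 15.8% had this order of the mature libraries, but in CPM and so not by the same measure. As the markers were chosen with the falls known, their order is no independent support. The arabinogalactan protein gene AGP6, which acts in pollen tubes, had 633, 619 and 1520 counts in mature seeds and 3, 11 and 6 at stage II. The sperm cell genes DUO1 and MGH3 had at most 2 counts, and the pollen coat genes EXL4, GRP16 and GRP17 at most 1. Most of the counts left at stage II came from AHA8 (224, 227 and 245) and ACA9 (137, 152 and 129), proton and calcium pumps. Of the 13 markers tested 12 fell, where 39.3% of all genes tested did. PGA4, RALF4 and PPME1 had no count at stage II and entered the test only through mature seeds. Their fall was thus fixed in advance, and the share of this list is no support for a part of pollen. ACA9 changed by -0.53 under TMM (adjusted p = 0.072 in edgeR) and by 0.82 under library size alone. Without mature replicate 2 its change was -0.82 and passed the test (adjusted p = 0.0074 in edgeR), and without mature replicate 3 it was 0.027. The part of pollen RNA in these falls was not tested.

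**Figure D3:**
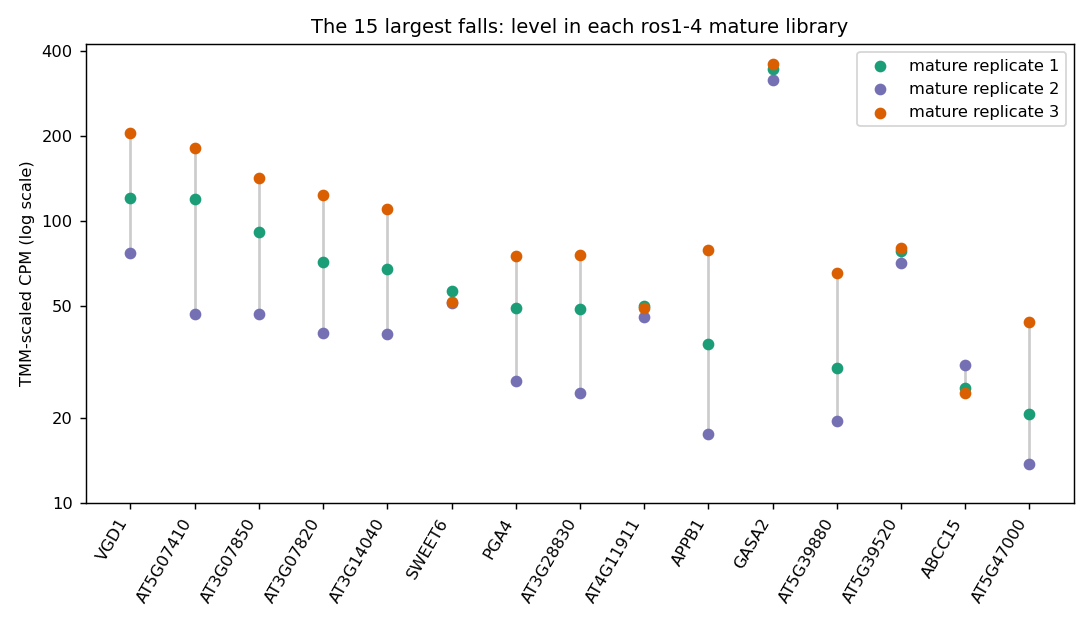
TMM-scaled CPM on a log axis of the 15 genes with the largest falls in each of the 3 mature *ros1-4* libraries, in order of rank. In 10 genes replicate 3 lies 2.66 to 4.50 times above replicate 2, and in SWEET6, AT4G11911, GASA2, AT5G39520 and ABCC15 the 3 libraries lie close together.

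Of the 15 largest rises, 4 had no count in any mature library. AT2G41475, which the annotation calls embryo-specific protein 3 (ATS3), had 0 counts in the mature libraries and 1379, 1389 and 1336 at stage II, at least 492-fold higher (adjusted p = 4.8e-13 in edgeR). GDCH, the H protein of the glycine decarboxylase complex of photorespiration, had 0 and then 926, 973 and 1012 counts, at least 349-fold higher. The fatty acid desaturase family gene ADS4 and the GDSL-type lipase AT4G16230 were at least 337-fold and 267-fold higher.

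The other 11 had 1 to 3 counts over the 3 mature libraries, so their ratios carry wide counting intervals. JAL31, a jacalin-related lectin, had 0, 1 and 0 counts in mature seeds and 2765, 2877 and 2902 at stage II, a ratio of 3073 with an exact 95% interval of 551.5 to 121409 from counting error alone. The carboxypeptidase-like SCPL51, which overlaps a neighbouring gene, went from a single count to 2228, 2253 and 2190. The aquaporin NLM1 also had a single count in mature seeds, against 1634, 1385 and 1481 at stage II. Wall proteins and wall enzymes were among the rest, with the arabinogalactan protein AGP30 (767, 902 and 968 counts at stage II), the pectin lyase-like AT1G04680 (2018, 1940 and 1886) and the pectin methylesterase inhibitor family member AT5G46960 (849, 838 and 831). The peroxidase AT5G17820 had 929, 1117 and 778 counts there and the acid phosphatase family gene AT5G44020 had 1996, 1713 and 1582. AT1G73620 of the thaumatin family, the cysteine proteinase AT3G43960 and CYP96A3 of the cytochrome P450 family completed the 15, with 704 to 997 counts in each stage II library.

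By share of counts the largest gain was isocitrate lyase (ICL), a key enzyme of the glyoxylate cycle, which turns carbon from oil into sugar. It went from 127746, 131501 and 121108 counts (0.663%) to 576272, 567714 and 579009 (2.77%), a log2 change of 0.70 under TMM (standard error 0.14, adjusted p = 0.00036 in edgeR) and of 2.06 under library size alone. PCK1, the first step of gluconeogenesis, went from 12758, 13147 and 12702 counts to 104546, 99896 and 103285, a rise of 1.52 (standard error 0.09, adjusted p = 1.0e-09 in edgeR). The myrosinase-family glucosidase PYK10 of root and hypocotyl ER bodies rose by 8.38, from 48, 125 and 278 counts to 136105, 140577 and 137798, and the small subunit of Rubisco RBCS1A by 6.13, from 274, 424 and 361 to 64481, 70964 and 70835. The other gains were the cell wall linker protein CWLP (5.84), the methionine synthase ATMS1 (5.04), the mitochondrial ADP/ATP carrier AAC1 (4.07), the lipase family gene AT1G54010 (7.34) and the elongation factor AT5G60390 (1.24). In none of these 10 genes did the groups overlap in counts. That follows in part from their choice by gain in share, and 90.2% of all genes tested had no overlap in CPM.

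Of the 7 genes of the glyoxylate cycle and gluconeogenesis, 5 rose and 2 fell, beside 50.3% and 39.3% of all genes, with a median of 0.73. PMDH2, a peroxisomal malate dehydrogenase, rose by 6.41, from 6, 10 and 8 counts to 1891, 2002 and 1841. MLS, malate synthase, and CSY3, a peroxisomal citrate synthase, had changes of -0.93 and -0.53, both calls of a fall, and both turned to a rise of 0.43 and 0.83 under library size alone. Of the 12 genes of oil breakdown 5 rose and 5 fell (median -0.11), shares near those of all genes, and the fall of the lipase SDP1 by 1.35 came to a change of 0.01 under library size alone. The acyl-CoA oxidases ACX2 and ACX4 rose by 1.26 and 1.13, and AIM1 of beta-oxidation fell under TMM (-1.96) and under library size alone (-0.60).

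Of 9 regulators of seed maturation tested, 7 fell and 2 rose, beside 39.3% and 50.3% of all genes, with a median of -3.73. DOG1, the main known gene of seed dormancy, had 771, 674 and 836 counts in mature seeds and 2 in each stage II library, a log2 change of -9.92 (standard error 0.19, adjusted p = 3.5e-15 in edgeR). ABI5, an ABA-response bZIP factor, went from 8305, 8298 and 6945 counts to 749, 746 and 827, and FUS3 from 138, 138 and 205 to 10, 17 and 23. ABI3 fell by only 1.85, with 5203, 5325 and 5373 counts before and 4028, 4106 and 4104 after. The exceptions were ABI4 and WRI1. ABI4, another factor of the ABA response, rose from 143, 152 and 162 counts to 2632, 3210 and 3516, by 2.88 (standard error 0.11, adjusted p = 5.2e-12 in edgeR). WRI1, a factor of oil synthesis, rose by 0.59 (adjusted p = 0.049 in edgeR), a call lost without mature replicate 2 or 3 or without stage II replicate 1 or 3. LEC1 and LEC2 had at most 3 counts in any library.

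Of the 18 ABA genes, 7 rose and 10 fell (median -1.35), where 50.3% of all genes rose and 39.3% fell. By library size alone 8 rose and 8 fell, where 73.8% and 18.7% of all genes did. The enzymes that break ABA down differed among themselves: CYP707A1 rose from 8, 25 and 7 counts to 870, 881 and 819 and CYP707A3 from 2, 3 and 14 to 1015, 1027 and 958, while CYP707A2 fell from 926, 897 and 1037 to 359, 365 and 390. Their log2 fold changes were 4.52, 5.81 and -2.84. Synthesis genes fell, with NCED6 at -5.10, NCED9 at -4.46 and ABA1 at -3.46, apart from ABA2, which rose by 0.83. AAO3, of the last step of synthesis, fell by 1.36 under TMM and did not pass the test under library size alone (adjusted p = 0.993 in edgeR). Among the phosphatases that repress the signal, AHG1 fell by 6.62 (standard error 0.11, adjusted p = 1.4e-15 in edgeR) and HAB1 by 2.34 (adjusted p = 8.0e-13 in edgeR). ABI1, which rose by 2.22, was the only phosphatase of the list called as rising. The receptors PYR1 and PYL1 and the kinase OST1 rose by 1.54, 3.56 and 4.50. OST1 was the only kinase of the list called as rising.

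Of 18 GA genes tested, 9 rose and 9 fell (median 0.19), near the 50.3% and 39.3% of all genes. With scaling by library size alone 11 rose and 4 fell, beside 73.8% and 18.7% of all genes. GA3OX1 and GA3OX2, which make bioactive GA, rose from 0, 2 and 3 to 541, 459 and 467 counts and from 1, 3 and 9 to 3205, 3246 and 3300, by 6.67 and 8.05 (adjusted p = 2.4e-11 and 1.7e-14 in edgeR). The GA-regulated peptide genes GASA4 and GASA6 rose by 8.61 and 7.17, in contrast to GASA2. GID1A and GID1C, receptors of GA, fell (-3.64 and -3.07), and GID1B rose by 4.84. The DELLA repressors RGL2 and RGA1 rose by 1.52 and 2.09. GAI, another DELLA, fell by 0.21 under TMM (adjusted p = 0.0056 in edgeR), a change whose direction depends on the scaling. Its counts were 559, 595 and 630 in mature seeds and 1422, 1442 and 1421 at stage II.

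Cell wall loosening enzymes rose, 11 of 13 against 50.3% of all genes tested, with a median of 7.34. XTH4 and MAN2, with at most 9 counts in any mature library, entered the test only through stage II. The expansin EXPA2, which loosens walls during germination, had 6, 21 and 29 counts in mature seeds and 13121, 12680 and 12964 at stage II, a rise of 7.96 (standard error 0.17, adjusted p = 9.3e-15 in edgeR). EXPA9 and EXPA10 rose by 7.95 and 7.85, and the xyloglucan-modifying XTH31 by 8.57, from 2, 8 and 23 counts to 11684, 11579 and 11789. The mannanases MAN5 and MAN6 fell (-1.76 and -2.19), while MAN7 rose by 2.23.

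All 9 root hair and seedling root markers rose, where 50.3% of all genes tested did, with a median of 8.16, or 7.60 with EXPA7 and XTH14 set at their lower bounds of 113-fold and 125-fold. EXPA7, EXPA18 and PRP1 had at most 2 counts in any mature library. They entered the test only through stage II, so that their rise was fixed in advance. The root hair wall protein gene PRP3 went from 1, 5 and 10 counts to 2043, 2233 and 1656, and PRP1 from 1, 0 and 2 to 1122, 1553 and 1038. In Col-0 at stage II, PRP3 had 2, 16 and 56 counts and PRP1 0, 1 and 54. The difference in change between the genotypes did not pass the test for either gene (adjusted p = 0.45 for PRP3 and 0.52 for PRP1 in edgeR), and the 3 Col-0 libraries spread widely. With almost no counts in Col-0, as for EXPA7, that test could not settle a difference. The whole list took 0.0224% to 0.0306% of counts at stage II in *ros1-4* and 0.00175% to 0.00288% in Col-0. Whether stage II seeds of both genotypes stood at the same point of germination was not tested, here or for the other genotype differences.

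All 18 nuclear photosynthesis genes rose (median 6.10), against 50.3% of all genes tested. PORC and HEMA1, with at most 7 counts in any mature library, entered the test only through stage II. The protochlorophyllide reductase PORB went from 2, 10 and 31 counts to 9920, 8616 and 9005, and the light-harvesting protein gene CAB1 from 97, 127 and 145 to 27394, 23035 and 23884, though reads of CAB1, CAB2 and CAB3, and of the RBCS genes, may be divided among near-identical copies. The genes of DNA replication and the cell cycle also rose in 18 of 18 (median 4.18), though CDC6, MCM7 and CYCD3;1 entered the test only through stage II. The helicase gene MCM7 had 1, 0 and 3 counts in mature seeds and 1067, 1146 and 1188 at stage II, and the D-type cyclin gene CYCD3;1 had 2, 0 and 2 and then 754, 810 and 827. The mitotic cyclin gene CYCB1;1 rose by 1.44 (standard error 0.22, adjusted p = 2.0e-05 in edgeR), from 12, 16 and 19 counts to 115, 121 and 120.

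Ribosomal and nucleolar genes rose in 13 of 14 cases, against 50.3% of all genes tested, with a median of 1.55. RPS6A rose by 2.53, from 1161, 1124 and 1410 counts to 20285, 19221 and 19953, and RPL5A by 2.22, from 2179, 2300 and 2420 to 29429, 29897 and 30215. The exception, the fibrillarin gene FIB1, fell by 0.40 under TMM and rose by 0.96 under library size alone, while its relative FIB2 rose by 2.48.

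Of 10 genes of DNA demethylation tested, 4 rose and 4 fell (median 0.08), near the 50.3% and 39.3% of all genes. Scaled by library size alone, 7 rose and 3 fell, where 73.8% and 18.7% of all genes did. DME, the demethylase known from the central cell that gives rise to the endosperm, rose from 151, 147 and 146 counts to 1599, 1624 and 1582, by 1.96 (standard error 0.08, adjusted p = 6.9e-12 in edgeR). IDM1, a histone acetyltransferase that directs ROS1 to its targets, rose by 2.28, while ROS3 and the methyl-DNA reader MBD7 fell (-1.94 and -2.35). DML2 fell by 0.64 under TMM, from 27, 25 and 22 counts to 47, 45 and 40, and rose by 0.72 under library size alone, and its call was lost without mature replicate 1 or stage II replicate 3. DML3 had at most 3 counts in any library.

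Genes of DNA methylation rose in 10 of 17 tested and fell in 3 (median 1.05), beside 50.3% and 39.3% of all genes. All 17 rose under library size alone, beside 73.8% of all genes. The chromomethylase genes CMT3 and CMT2 rose by 5.17 and 6.92, with CMT3 going from 8, 10 and 12 counts to 991, 958 and 1077. The remodeler DDM1 rose by 5.19 and the maintenance methyltransferase MET1 by 1.87. The de novo methyltransferase DRM2 fell by 0.72 under TMM and rose by 0.64 under library size alone.

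Among transcription factors of the ranked genes, the 5 largest rises were WRKY65, the zinc finger factor LATE, the bHLH factor HEC2 and the GATA factors GATA2 and GATA12. GATA2, which acts in the response of seedlings to light, had 2, 1 and 1 counts in mature seeds and 1398, 1411 and 1440 at stage II, a rise of 8.51 (standard error 0.18, adjusted p = 1.2e-14 in edgeR). The other 4 had at most 2 counts in any mature library and 690 to 1361 at stage II. The largest fall was that of HSFA9, a heat stress factor of maturing seeds, with 5008, 4736 and 5054 counts before and 1, 9 and 15 after, by 10.66 (standard error 0.19, adjusted p = 2.5e-15 in edgeR). WOX2, a homeobox factor of the early embryo, fell by 8.82 to 18, 19 and 20 counts. The bHLH gene AT3G56770, the NAC factor ATAF1 and the GATA-like AT1G02700 had log2 fold changes of -7.34, -7.13 and -6.93.

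The change from mature seeds to stage II was also set against that in Col-0 by the interaction of genotype and stage over 12 libraries. Of 19252 genes tested, 3784 (19.7%) differed, 2005 (10.4%) towards a larger rise or smaller fall in *ros1-4* and 1779 (9.24%) the other way. Under library size alone these counts were 7450 and 464, so that the balance of directions depends on the scaling. Differences were mostly modest, with a median size of 0.69 on the log2 scale.

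Storage transcripts were among those that fell less in *ros1-4*. At stage II CRA1 had 18446, 18515 and 26641 counts in *ros1-4* and 1226, 1634 and 1134 in Col-0, although mature seeds had 909518 to 1018550 and 992051 to 1053862 (adjusted p = 1.0e-05 for the difference in change in edgeR). PAP85 had 2534, 2059 and 3777 counts at stage II against 120, 146 and 140 in Col-0 (adjusted p = 4.5e-06 in edgeR). Over all genes tested 10.4% differed towards a larger rise or smaller fall in *ros1-4* and 9.24% the other way. Of the 7 globulins 4 fell less and 1 fell further, of the 5 albumins 3 fell less, and of the 8 oil body genes 4 fell less and 1 fell further. Of the 16 LEA genes only 2, M17 and ECP31, fell less and 8 fell further, among them ECP63, an embryonic cell protein, whose stage II counts were 591, 733 and 644 in *ros1-4* and 2490, 2957 and 693 in Col-0. The third Col-0 library, which lies near the *ros1-4* values here, stood apart from the other 2 of its group in the same way for AT4G36600, another LEA gene, with 2144, 2567 and 362 counts.

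The genes with at least 20 CPM in *ros1-4* and the most positive differences were AT4G08400, AT2G41475, GDCH, AtMT4a and AT2G33830. AtMT4a, a seed metallothionein, fell from 21902, 19930 and 21629 counts to 116, 117 and 203 in *ros1-4* and from 17792, 18458 and 17944 to 3, 3 and 5 in Col-0. AT2G33830, annotated as dormancy and auxin associated, fell from 2622, 2206 and 2872 to 62, 107 and 87 in *ros1-4* and from 11184, 11248 and 11385 to 11, 10 and 16 in Col-0. AT4G08400, an extensin-like gene, only just passed the test (adjusted p = 0.0495 in edgeR), with 755, 931 and 726 counts at stage II in *ros1-4* and 3, 1 and 28 in Col-0. GDCH and AT2G41475 had 1 to 7 counts in each mature Col-0 library against none in *ros1-4*, and the counts of the genotypes overlapped at stage II. The calls of GDCH and AT2G41475 were lost without any 1 of the 3 mature *ros1-4* libraries (adjusted p between 0.0540 and 0.0612 in edgeR). That of GDCH was also lost without Col-0 mature replicate 1 or 3 (0.0514 and 0.0651) and that of AT2G41475 without Col-0 mature replicate 2 (0.125). The call of AT4G08400 was lost with all 18 libraries (0.411), robust dispersions (0.113) or DESeq2 size factors (0.0502), and without any 1 of the 12 libraries apart from Col-0 stage II replicates 2 and 3. Its difference of 6.96 became 10.49 without *ros1-4* mature replicate 2 and 9.27 without Col-0 stage II replicate 3.

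The most negative differences were those of ELIP1, GLU1, AT3G21380, AT3G12320 and AT4G36600. ELIP1, a light-induced protein of thylakoids, rose from 77, 79 and 119 to 1318, 1248 and 1137 counts in *ros1-4* and from 25, 11 and 23 to 4349, 4573 and 7222 in Col-0. GLU1, a ferredoxin-dependent glutamate synthase, started from 26, 26 and 24 counts in *ros1-4* and from 1, 0 and 3 in Col-0. The lectin AT3G21380 fell to 121, 104 and 114 counts in *ros1-4* and to 904, 812 and 358 in Col-0, and AT3G12320 to 62, 65 and 73 against 710, 621 and 308.

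Of the 11 circadian clock genes 9 were past the test of the interaction, against 19.7% of all genes. LHY, a morning gene, had 32, 14 and 26 counts in mature *ros1-4* seeds and 102, 79 and 58 at stage II, a change of 0.25 under TMM that did not pass the test (adjusted p = 0.45 in edgeR) and a rise of 1.61 under library size alone (adjusted p = 0.00012). In Col-0 it rose from 55, 39 and 56 to 6155, 5587 and 5183. CCA1, its partner, had 46, 38 and 43 counts at stage II in *ros1-4* and 2173, 1602 and 1194 in Col-0. The evening-phased PRR5 went the other way, with 578, 607 and 631 counts at stage II in *ros1-4* and 66, 40 and 14 in Col-0. Within *ros1-4*, 9 of the 11 clock genes fell and 1 rose under TMM (median -0.92), where 39.3% and 50.3% of all genes did, while 2 fell and 7 rose under library size alone, where 18.7% and 73.8% did. RVE8 fell by 5.12 and PRR9 fell by 3.35, and both also fell under library size alone. CCA1 fell by 1.00 under TMM and had a change of 0.36 under library size alone that did not pass the test (adjusted p = 0.18 in edgeR). The hour at which seeds were collected is not given in the sources used here.

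**Figure D4:**
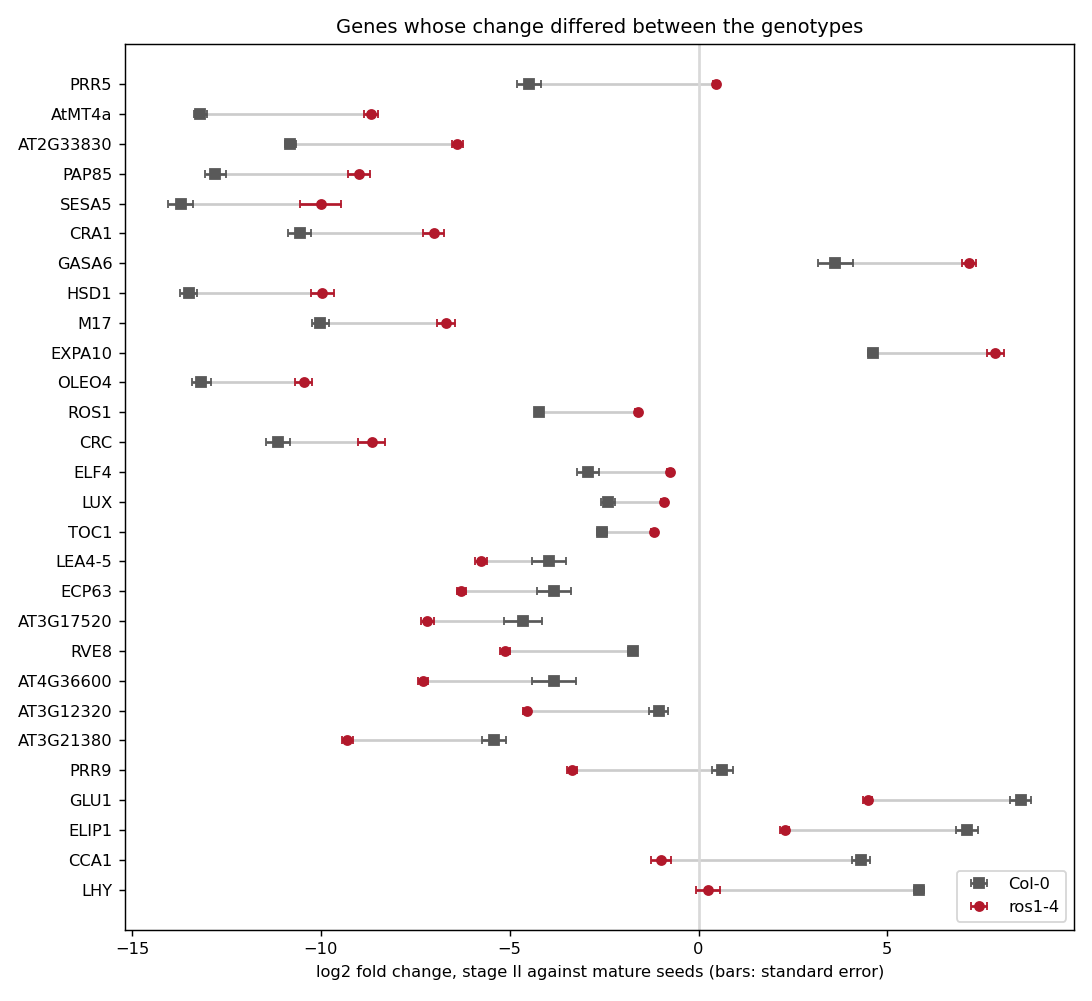
log2 fold change from mature seeds to stage II in *ros1-4* (red circles) and Col-0 (grey squares), with standard errors, for genes whose change differed between the genotypes. PAP85 lies at -8.99 in *ros1-4* and -12.79 in Col-0, and LHY rose by 5.83 in Col-0 against 0.25 in *ros1-4*. Genes with no count in a group, or not tested in Col-0 alone, are left out.

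Some of the genes named overlap a neighbour in the annotation, on either strand, and since the sources do not state that reads were counted by strand, their counts are less certain. They are ATAF1, EXPA7, CAB1, ABA2, LEA7, MUM4, ALPHA-TIP, HSP101, GASA6, ELF3, AAO3, SCPL51, CDC6, CSY3, PYK10, AT3G12320, IDM1, ACA9, CWLP, AHA8, TT12, DUO1, MCM7, OLEO1, FIB2, ABI1, PORB, MAN5, AIM1, CYCD3;1, MAN6, GLU1, EXPA2, GRP16, AT5G39520, AT5G44020, FIB1, HSFA9, ROS3, AT5G60390, RAB18 and MAN7.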

How the data were processed

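Entire seeds were sequenced as single-end reads of 50 bases. The authors quantified reads with Salmon against the Araport11 transcriptome and deposited estimated counts per transcript in a table of all samples. These expected counts were summed from 48268 transcripts to 27587 genes and rounded. Names and overlaps came from RefSeq TAIR10.1, which matched 48072 transcripts by name, all with the same length.

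The 3 stage II and 3 mature libraries of *ros1-4* were compared with edgeR 4.0.16 in R 4.3.3 (TMM scaling, filterByExpr, quasi-likelihood test, two-sided, Benjamini-Hochberg adjustment over 18822 genes, called at an adjusted p under 0.05). The interaction used 12 libraries. Replicates of a group differed beyond counting noise (chi-square per degree of freedom 2.57 to 12.0). The fits were tested on simulated data in which few genes changed, equally in both directions. That simulation could not check the scaling for data in which most genes change. DESeq2 1.42.0, other scalings, filters, thresholds, a replicate block and leaving out each replicate were the alternatives.

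Members, lists and tests were chosen with earlier results of these data known. Named genes are ROS1, members of 20 lists (247 genes), the 15 largest rises and falls (called, no overlap, at least 20 CPM in the higher group), the 10 largest gains and losses in share of counts, the 5 largest differences between genotypes in each direction (called, at least 20 CPM in *ros1-4*) and the 5 transcription factors with the largest rises and falls. The pollen markers were added after seeing the data. List members with almost no count in 1 group entered the test only through the other group, so that their direction was fixed by the filter. Where a group had no count, 3 counts over its 3 libraries served as the floor of a fold. With 1 to 3 counts the ratio has an exact 95% interval. Intervals and bounds cover counting error only, since reads carried no molecular identifiers.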

Additional observations from a re-analysis of the deposited data

Results flagged for a closer look

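For 31 genes, named above or members of the gene lists, the change from mature seeds to stage II differed between *ros1-4* and Col-0 in edgeR's test of the interaction. The values below are that difference on the log2 scale, positive where the rise was larger or the fall smaller in *ros1-4*. The difference was -5.60 for LHY, -5.33 for CCA1, -4.01 for PRR9 and -3.40 for RVE8, clock genes known to peak early in the day. It was 4.94 for PRR5, 2.16 for ELF4, 1.46 for LUX and 1.33 for TOC1, clock genes known to peak later. Outside these 31 genes, the clock gene ELF3 went the other way, with -0.27 (adjusted p = 0.038 in edgeR). The difference of GI, 0.27, did not pass the test (adjusted p = 0.14 in edgeR). In the clock list 4 genes were thus called higher and 5 lower in *ros1-4*.

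Among reserve genes the difference was 3.77 for PAP85, 3.68 for SESA5, 3.54 for CRA1, 3.52 for HSD1, 2.68 for OLEO4 and 2.46 for CRC. Outside the genes flagged here, the globulin AT2G18540 went the other way, with -2.68 (adjusted p = 0.0042 in edgeR). It was the 1 globulin of 7 that fell further in *ros1-4*, and 1 of the 8 oil body genes also fell further. Among LEA genes the difference was 3.29 for M17, and -3.49 for AT4G36600, -2.56 for AT3G17520, -2.48 for ECP63 and -1.81 for LEA4-5. For ROS1 the difference was 2.58.

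Among the other genes it was 6.96 for AT4G08400, 5.32 for AT2G41475, 5.27 for GDCH, 4.51 for AtMT4a, 4.40 for AT2G33830, 3.52 for GASA6 and 3.22 for EXPA10. It was -4.85 for ELIP1, -4.07 for GLU1, -3.90 for AT3G21380 and -3.52 for AT3G12320. AT2G41475 and GDCH had no count in mature *ros1-4* seeds, so their differences depend on the prior count of the fit and came to 3.75 and 3.71 in DESeq2. That of AT4G08400, with 2 counts in mature *ros1-4* seeds, became 10.49 without *ros1-4* mature replicate 2 and 9.27 without Col-0 stage II replicate 3. The calls of OLEO4, HSD1 and SESA5 were lost when all 18 libraries were fitted (adjusted p = 0.112, 0.0634 and 0.0916 in edgeR), and that of GASA6 without Col-0 mature replicate 1 (adjusted p = 0.0796, difference 2.85) and with robust dispersions. Only ROS1 and the genes ranked by this difference were chosen by a rule, and the rest were picked from the gene lists with earlier results of these data known.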

How the results depend on the processing

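The 16875 calls between mature seeds and stage II were within 1.5 times of this count under DESeq2, other size factors, no filter, all 18 libraries, robust dispersions, stricter thresholds and library size alone, and ranged from 16591 to 16992 without each replicate. Only the genes that fell moved further, to 3516 under library size alone. The genes that differed between genotypes numbered 7914 under library size alone (7450 higher and 464 lower in *ros1-4*), 1995 at an adjusted p under 0.01 (1055 and 940) and 1191 with a log2 difference of at least 1 (790 and 401), and 2943 to 4618 without each replicate. Under library size alone the log2 fold change turned to 0.83 for CSY3, 0.36 for CCA1, 0.72 for DML2, 0.82 for ACA9, 0.43 for MLS, 0.011 for SDP1, 0.64 for DRM2, 0.96 for FIB1 and 0.51 for SBT1.7, by a shift near the median of about 1.36. Without each replicate in turn LHY, called in none of these, lay between -0.042 (without mature replicate 2) and 0.52, and ACA9 between -0.82, where it was called, and 0.027. Under library size alone LHY was called, at 1.61.

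Same-numbered mature and stage II libraries did not deviate together (correlations -0.016, -0.005 and -0.023), so the numbers were not taken as pairs. With a replicate block 16691 genes were called between the stages and 3540 between the genotypes, and the call of AT4G08400 between the genotypes was lost (adjusted p = 0.0655 in edgeR).

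Counts limit the rises of genes with at most 3 counts in mature seeds, whose ratios span over 1 order of magnitude. Relative values cannot show total RNA. Reads of copies, overlapping genes and insertion transcripts were not separated.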
